A study of Homo sapiens with 9 samples.

Results

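Kinesins are motor proteins that use ATP to move along microtubules, and the genes of this family were followed here in A2780 cells, an established line of human ovarian carcinoma, after 24 h without drug, with 8 nM DIG-MSK or with 80 nM DIG-MSK. DIG-MSK is an analogue of the antibiotic mithramycin A, which binds C/G-rich DNA in the minor groove, and it differs from mithramycin A in the side chain at C-3 and in the distal sugar of the trisaccharide. The labels name no engineered change in the cells and no vehicle for the untreated cultures. Each group had 3 arrays, which the methods of the study describe as biological replicates, 9 arrays in all. A gene was taken as a member when its symbol began with KIF, followed by a digit or a C, and when at least 1 gene probe of the array was assigned to a RefSeq transcript (NM_ accession) of it. This gave 40 genes out of 35010 distinct gene features, represented by 56 probes. They were divided by the known roles of the proteins into 13 mitotic kinesins, 15 transport kinesins and 12 others (cilium, Hedgehog signalling, microtubule regulation or little known).

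Mitotic kinesins build the spindle, move chromosomes and form the midzone at which a dividing cell is cut, and the RNA of many of them is known to peak in the G2 and M phases of the cycle. Transport kinesins carry vesicles, organelles and RNA along microtubules, most of these motors towards the cell periphery, with adaptor proteins that link the motor to the cargo. Some of the transport motors are known mainly from neurons, where axons are long, and others are present in most cell types. Mitotic motors have been studied as drug targets in cancer, because cells that cannot separate the spindle poles stop in mitosis.

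The promoters of the kinesins are shown first because the drug binds C/G-rich DNA. The RefSeq table of promoters (GRCh38.p14) held 32 of the 40 members, and the 250 bases before each start site were searched for GGGCGG (the GC box, the core of the site that Sp1 binds), for CCAAT, and for TTTGAA or TTCGAA (the cell cycle homology region, an element known from promoters of G2 and M phase genes), each on both strands and with overlapping matches counted. The promoters of the transport kinesin that fell most, KIF1A, of its relative KIF1C, of KIF26A and of the mitotic motor KIF11 are given 5′ to 3′ on the strand of the gene, with every match to these letters in capitals. For KIF1A, which has 3 start sites in the table, the one with the most GC boxes is shown. They lie at chr2:240820220-240820469 on the minus strand (KIF1A), chr17:4997700-4997949 on the plus strand (KIF1C), chr14:104138337-104138586 on the plus strand (KIF26A) and chr10:92592880-92593129 on the plus strand (KIF11).
KIF1A: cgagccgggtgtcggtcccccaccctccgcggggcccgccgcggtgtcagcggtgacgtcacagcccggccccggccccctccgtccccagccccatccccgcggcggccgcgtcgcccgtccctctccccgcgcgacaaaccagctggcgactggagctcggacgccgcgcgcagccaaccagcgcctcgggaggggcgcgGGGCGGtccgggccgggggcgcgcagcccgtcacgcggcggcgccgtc
KIF1C: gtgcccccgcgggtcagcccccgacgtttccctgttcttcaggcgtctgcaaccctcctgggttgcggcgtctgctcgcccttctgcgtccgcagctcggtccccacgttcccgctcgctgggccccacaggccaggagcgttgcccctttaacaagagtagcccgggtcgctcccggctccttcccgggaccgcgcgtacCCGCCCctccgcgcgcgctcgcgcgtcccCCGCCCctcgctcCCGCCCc
KIF26A: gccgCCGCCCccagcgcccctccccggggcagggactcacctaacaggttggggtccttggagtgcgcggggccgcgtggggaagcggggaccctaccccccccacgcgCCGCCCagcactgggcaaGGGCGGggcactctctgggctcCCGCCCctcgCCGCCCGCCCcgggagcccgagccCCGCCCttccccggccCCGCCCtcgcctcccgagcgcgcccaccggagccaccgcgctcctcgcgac
KIF11: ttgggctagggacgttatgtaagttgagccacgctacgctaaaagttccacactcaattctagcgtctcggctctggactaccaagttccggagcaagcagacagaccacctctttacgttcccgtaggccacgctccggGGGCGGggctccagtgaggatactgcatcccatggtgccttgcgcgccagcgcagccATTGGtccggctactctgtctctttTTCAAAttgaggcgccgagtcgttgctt

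The KIF1A stretch was 82.0% G or C and held 1 GC box, while its other start sites, at 71.6% and 49.6%, held 0. KIF1C held 3 GC boxes at 74.0% G or C, and KIF26A held 8, a pair of them overlapping, at 80.8%. KIF11 was lower in G and C (56.8%) and held 1 match to each of the searched elements. Among all 35116 promoters in the table, 42.6% held GGGCGG, 32.0% held CCAAT and 14.3% held TTTGAA or TTCGAA, and the median G and C content was 58.0%. By gene, GGGCGG stood in 11 of 13 mitotic kinesins, 11 of 11 transport kinesins and 8 of 8 others, against 46.2% of all 27305 genes. CCAAT stood in 9 of 13 mitotic kinesins and 4 of 11 transport kinesins, against 37.0% of all genes. TTTGAA or TTCGAA stood in 6 of 13 mitotic kinesins (KIF11, KIF15, KIF18A, KIF22, KIF23 and KIF4A) and in 1 of 11 transport kinesins (KIF5B), against 17.2% of all genes. These counts describe letters in a window and were not tested.

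On the arrays, 34 of the 40 kinesin genes passed the filter, a probe well above background on every array of some group, and were tested: 12 of 13 mitotic, 15 of 15 transport and 7 of 12 others. The genes not tested were KIF2B, KIF12 and KIF19, well above background on no array, KIF9 and KIF6, each on 1 array, and KIF27, on 2 untreated arrays and 1 array at 8 nM. A level below is a log2 intensity relative to the 75th percentile of the same array, and levels of different genes are not compared because each probe has its own brightness. The scaling percentile ranged from 831.7 to 1170 intensity units over the 9 arrays, between 24814 and 27151 probes per array were well above background, and 0 gene spots were saturated. Of the epithelial markers, KRT8, KRT18, KRT19, MUC1 and EPCAM were well above background on all 9 arrays, WT1 and CDH1 on none, and PAX8 on 1 of 3 in each group. Of 4 mesenchymal markers, VIM, CDH2 and ZEB1 were well above background on all 9 and FN1 on none, and at 80 nM VIM changed by 0.40, CDH2 by -2.33 and ZEB1 by -0.09. The untreated and 8 nM arrays were on the same slide and the 80 nM arrays on another, so the effect of 80 nM cannot be told apart from that of the slide, while 8 nM against untreated is a comparison within a slide.

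A gene was called by the rule in the methods of the study, at least 1.5-fold up or at most 0.67-fold of the untreated level with an unadjusted p under 0.05 in limma, and the p-value adjusted over all 21832 genes tested is given beside it. At 8 nM, 2 kinesins were called up (KIF25 and KIF5C) and 1 down (KIF1A) of 34, where the same rule called 4.25% of all genes up and 2.84% down. With an adjusted p in the rule there was 1 kinesin up (KIF25) and 1 down (KIF1A), against 3.71% and 1.42% of all genes. At 80 nM, 3 kinesins were called up (KIF11, KIF26B and KIF5A) and 5 down (KIF1A, KIF13B, KIF5C, KIF26A and KIF25), where 18.8% of all genes were called up and 16.3% down. With 10 spike-in probes in place of the 75th percentile as the scale, the split at 80 nM was 1 up and 11 down, and the median log2 change over all genes moved from 0.08 to -0.20. Between the concentrations, 4 kinesins were higher at 80 nM than at 8 nM (KIF11, KIF15, KIF26B and KIFC3) and 6 were lower (KIF1A, KIF13B, KIF5C, KIF25, KIF26A and KIF3C), where 19.5% of all genes were called higher and 14.2% lower. That split was 1 and 8 with the spike-in scale. At 8 nM the split became 1 up and 1 down when arrays were scaled to their median. The share of kinesins called was near or below that of all genes in each direction.

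**Figure D1:**
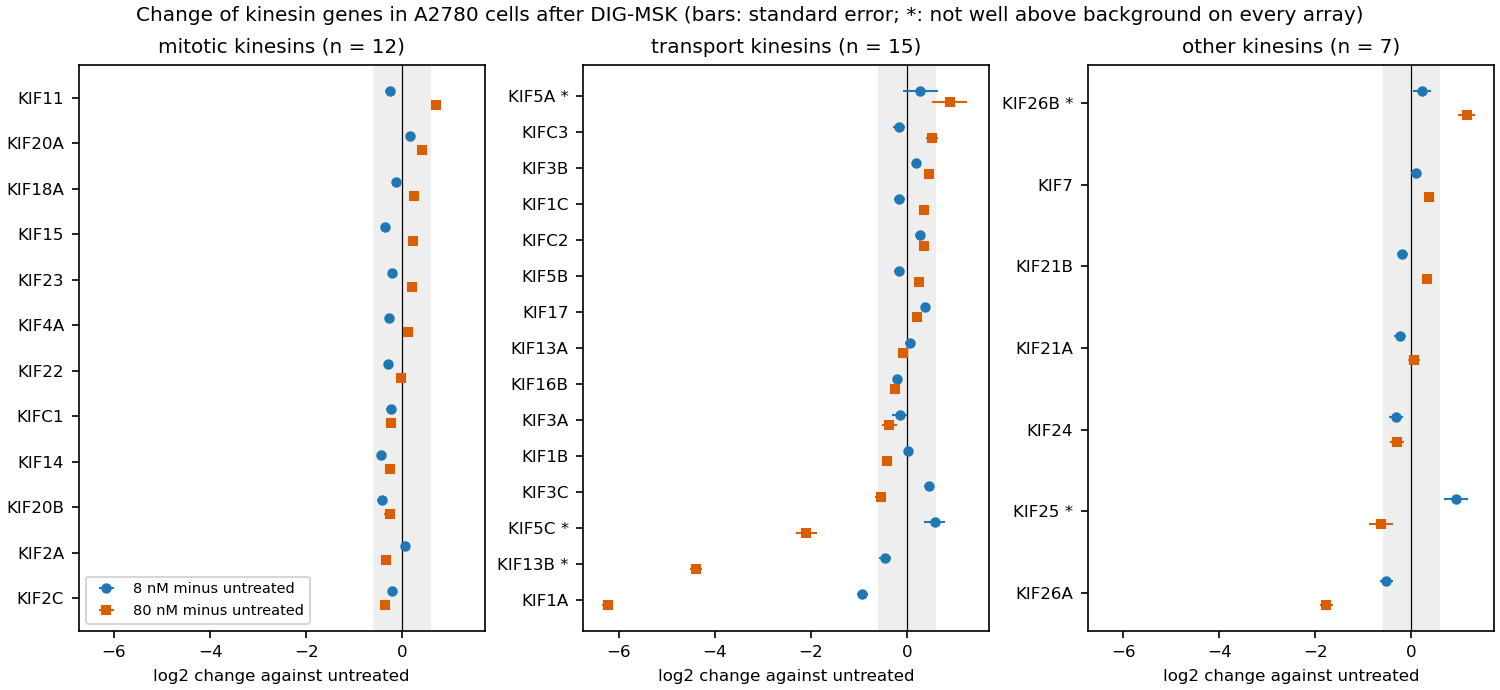
Log2 change of the 34 tested kinesin genes against untreated cells at 8 nM (circles) and 80 nM (squares), by class, with the standard error as bars; the grey band marks changes below the fold limits of the calls, and an asterisk marks genes that were not well above background on every array. All 12 mitotic kinesins lie between -0.44 and 0.70, whereas KIF1A reaches -6.23 and KIF13B -4.38 at 80 nM, where KIF13B was not well above background.

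KIF1A had the largest change of the family at both concentrations among members well above background on all 9 arrays. It encodes a kinesin-3 motor (NM_004321) that carries precursors of synaptic vesicles along axons. Its level was 3.84, 4.06 and 4.06 on the untreated arrays, 2.827, 3.259 and 3.097 at 8 nM, and -2.29, -2.14 and -2.30 at 80 nM. All 3 arrays of each treated group lay below all untreated arrays, and the 80 nM arrays lay below the 8 nM arrays as well. The log2 change was -0.93 (SE 0.12, adjusted p = 0.0025 in limma) at 8 nM, a 1.90-fold fall. At 80 nM it was -6.23 (SE 0.12, adjusted p = 1.0e-08), a 75.04-fold fall. From 8 to 80 nM the gene fell by a further 39.5-fold (log2 change -5.30, adjusted p = 2.2e-08).

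KIF1B and KIF1C, the closest relatives of KIF1A, were not called at either concentration by the probe that stood for the gene. KIF1B, a motor of mitochondria and synaptic vesicle precursors, was at 0.61, 0.68 and 0.63 without drug, 0.63, 0.70 and 0.68 at 8 nM, and 0.23, 0.20 and 0.25 at 80 nM. The groups overlapped at 8 nM and did not at 80 nM, where the change was -0.41 (adjusted p = 5.3e-04 in limma), short of the fold limit. Its other 3 probes gave -0.87, -0.20 and -0.47 at 80 nM, so the probes of KIF1B fell by different amounts. The probe at -0.87, assigned to another transcript of the gene, was past the fold limit (adjusted p = 1.4e-05 in the limma fit over probes). KIF1C, which carries dense-core and Golgi-derived vesicles, was 0.36 higher at 80 nM (adjusted p = 0.022), with all 80 nM arrays above all others. KIF16B, a motor of early endosomes, changed by -0.25 at 80 nM (adjusted p = 0.021), while its second probe gave -0.63 (adjusted p = 0.014 in the fit over probes), past the fold limit. KIF13A, a motor of recycling endosomes, changed by -0.08 (adjusted p = 0.50).

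KIF13B (NM_015254), a kinesin-3 motor that carries scaffold proteins of the membrane, was the transport kinesin next to KIF1A in its fall. It was at -3.34, -3.60 and -3.49 without drug and at -4.02, -3.84 and -3.92 at 8 nM. At 80 nM it was well above background on 0 of 3 arrays, where its measured values were -7.94, -8.04 and -7.61. The 80 nM level is therefore a bound, counted from the dimmest signal that was well above background on each array. By it KIF13B was at least 5.62-fold lower than in untreated cells and at least 4.12-fold lower than at 8 nM. The limma fit of the measured values gave adjusted p = 6.2e-08 and 1.1e-07. Against untreated cells the log2 change was -1.06 with normexp background and -1.71 with the authors' log2 values, both smaller falls than the bound. At 8 nM its change was -0.45 (SE 0.12, adjusted p = 0.048; 0.11 with the replicate number as a block among the untreated and 8 nM arrays), short of the fold limit, though its 3 arrays all lay below the untreated ones. A second KIF13B probe was well above background on no array.

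The heavy chains of kinesin-1, the motor that works with kinesin light chains on many cargoes, differed by gene. KIF5B, the heavy chain found in most tissues, was at 3.07, 3.09 and 3.01 without drug, 2.78, 3.12 and 2.78 at 8 nM, and 3.31, 3.26 and 3.35 at 80 nM. It was not called at 8 nM (-0.16, adjusted p = 0.30) or at 80 nM (0.25, adjusted p = 0.062). The second KIF5B probe gave -0.31 and -0.46, of the opposite sign at 80 nM (adjusted p = 0.013 in the limma fit over probes). KIF5C and KIF5A, the heavy chains known from neurons, were close to background. KIF5C was at -5.44, -6.34 and -6.15 without drug (well above background on 1 array), at -5.48, -5.22 and -5.48 at 8 nM (on 3), and at -8.24, -8.04 and -7.94 at 80 nM (on 0). Its 8 nM and untreated arrays overlapped. The call up at 8 nM had a change of 0.59 (adjusted p = 0.11 in limma), and it was not made with median scaling, normexp background, the authors' log2 values or the replicate number as a block with only the untreated and 8 nM arrays, nor without untreated replicate 2 or 3, or without 8 nM replicate 2. At 80 nM it was at least 1.49-fold lower than at 8 nM (adjusted p = 2.2e-05), and against untreated cells no bound above 1 could be set, although the fit called it down (adjusted p = 8.0e-05). With normexp background correction the fall of KIF5C against untreated cells had an adjusted p of 0.21.

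KIF5A was at -5.87, -5.63 and -5.61 without drug (well above background on 1 array), -5.02, -6.15 and -5.08 at 8 nM (on 2), and -5.12, -4.09 and -5.23 at 80 nM (on 3). The 80 nM arrays lay above the untreated ones and overlapped those at 8 nM. The change at 80 nM was 0.89 with an SE of 0.37 and an adjusted p of 0.067 in limma. That call was not made without 80 nM replicate 2 or without any 1 of the untreated arrays.

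Of the subunits of kinesin-2, which works in cilia and in the movement of vesicles, KIF3C moved in opposite directions at the 2 concentrations. It was at -2.50, -2.58 and -2.47 without drug, -2.17, -1.80 and -2.20 at 8 nM, and -3.04, -3.03 and -3.11 at 80 nM. No groups overlapped. The change was 0.46 at 8 nM (adjusted p = 0.027 in limma) and -0.54 at 80 nM (adjusted p = 0.0030). Neither passed the fold limit, while the difference between the concentrations did (-1.01, adjusted p = 1.2e-04). With the replicate block among the untreated and 8 nM arrays the adjusted p at 8 nM was 0.13. A second KIF3C probe, which did not pass the filter, was well above background on 2 arrays at 80 nM and on no other array. KIF3B was higher at 80 nM by 0.47 (adjusted p = 8.5e-04) and KIF3A changed by -0.36 (adjusted p = 0.078). KIF17, a homodimer of the same family, was higher at 8 nM by 0.38 (adjusted p = 0.029 in limma). With the block among the untreated and 8 nM arrays its adjusted p was 0.095. It stayed under 0.05 with the block on all 9 arrays, and did not with only the untreated and 8 nM arrays and no block. Of the transport motors with a C-terminal head, KIFC3 changed by -0.16 at 8 nM and 0.52 at 80 nM, a difference of 0.68 (adjusted p = 0.0020) that was not called without 8 nM replicate 2. KIFC2 was 0.36 higher at 80 nM (adjusted p = 0.0065), with its second probe at 0.37.

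**Figure D2:**
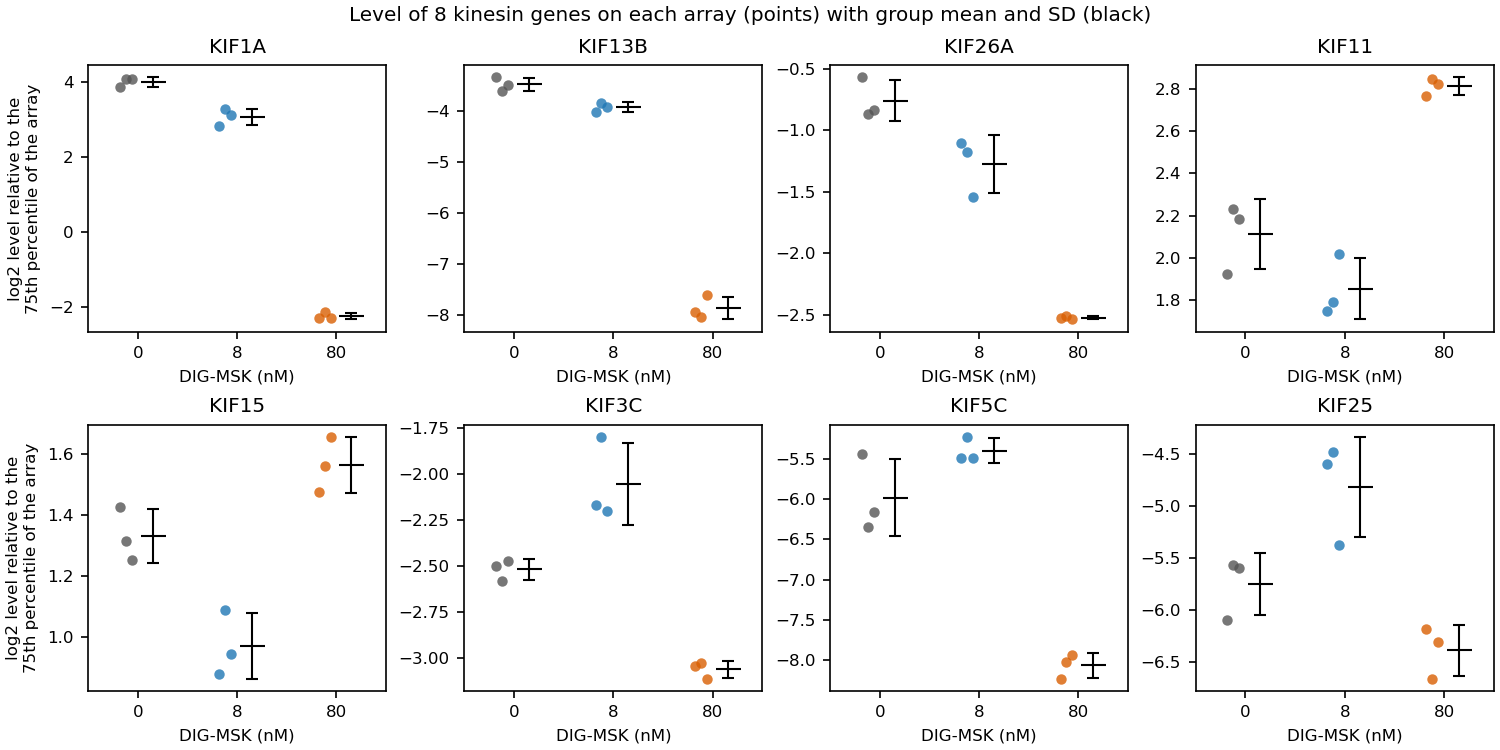
Level of 8 kinesin genes on each array (points), as log2 intensity relative to the 75th percentile of the array, against the concentration of DIG-MSK in nM, with the group mean and SD in black and a separate y range in each panel. KIF1A, KIF13B and KIF26A step down with each concentration, KIF11 and KIF15 are lowest at 8 nM and highest at 80 nM, and KIF3C and KIF25 are highest at 8 nM and lowest at 80 nM; the KIF13B, KIF5C and KIF25 points at 80 nM are below the limit of a level well above background.

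Of the mitotic kinesins, 0 of 12 were called at 8 nM in limma, 9 were lower and 1 higher with an unadjusted p under 0.05 at any fold, where 16.3% of all genes were lower and 14.5% higher, and 3 (KIF14, KIF15 and KIF20B) had an adjusted p under 0.05 with a fall, where 5.72% of all genes had such a fall and 7.91% such a rise. With the replicate number as a block among the untreated and 8 nM arrays, the count of these falls was 0, against 0.806% of all genes, with adjusted p between 0.10 and 0.13 for the 3 genes. In that fit 4 mitotic kinesins were lower with an unadjusted p under 0.05, against 14.8% of all genes. With the block on all 9 arrays KIF14 kept an adjusted p under 0.05 (0.048 in limma), and KIF15 and KIF20B did not. With only the untreated and 8 nM arrays and no block, none of the 3 kept it, so the loss is not particular to the block. The second probe of KIF20B did not fall at 8 nM (0.12, adjusted p = 0.50 in the limma fit over probes). The change at 8 nM was negative in 10 of 12 mitotic kinesins, from -0.44 to 0.17 with a median of -0.25, beside a median of -0.06 over all genes and of 0.03 over the 15 transport kinesins. The mitotic median was -0.31, -0.13 and -0.28 on the 3 arrays at 8 nM, relative to the untreated mean of each gene. In 7 of 12 mitotic kinesins all 8 nM arrays lay below all untreated arrays and in 1 (KIF20A) above them, where 18.5% of all genes lay below and 15.8% above. The transport kinesins gave 3 below and 4 above of 15.

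At 80 nM mitotic kinesins moved in both directions, as did the genes tested as a whole. Of 12, 1 was called up (KIF11) and 0 down in limma (5 and 5 with an unadjusted p under 0.05 at any fold, beside 35.8% and 27.6% of all genes), and 5 had an adjusted p under 0.05 with a rise (KIF11, KIF20A, KIF18A, KIF15 and KIF23) and 3 with a fall (KIF2C, KIF2A and KIF14), where 33.3% of all genes had such a rise and 25.7% such a fall. All 80 nM arrays lay above the untreated ones in 6 and below in 5 mitotic kinesins, where this held for 40.3% and 31.7% of all genes. KIF20B is among those below, while its second probe rose by 0.71. The median change was 0.05, with a range from -0.36 to 0.70, and it was -0.23 with the spike-in scale. From 8 to 80 nM the mitotic median was 0.25, beside 0.12 over all genes, and 7 of 12 rose and 1 fell (KIF2A) with an adjusted p under 0.05, where 34.6% and 22.9% of all genes did. With the spike-in scale that median was -0.11.

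KIF11, also called Eg5, is the motor that pushes the spindle poles apart (NM_004523). It was at 1.92, 2.23 and 2.18 without drug, 1.75, 1.79 and 2.02 at 8 nM, and 2.77, 2.85 and 2.83 at 80 nM. The untreated and 8 nM arrays overlapped, and all 80 nM arrays lay above both. The change was -0.26 at 8 nM (adjusted p = 0.14 in limma) and 0.70 at 80 nM (SE 0.11, adjusted p = 6.6e-04), a 1.63-fold rise. With the spike-in scale the rise was 0.42 with an adjusted p of 0.24. From 8 to 80 nM it rose 1.95-fold (adjusted p = 1.3e-04).

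KIF15, which can hold the spindle poles apart together with KIF11, was at 1.43, 1.32 and 1.25 without drug, 0.88, 1.09 and 0.95 at 8 nM, and 1.48, 1.56 and 1.66 at 80 nM. It lay below the untreated arrays at 8 nM (-0.36, adjusted p = 0.030 in limma) and above them at 80 nM (0.23, adjusted p = 0.047). The difference between the concentrations was 0.59 (adjusted p = 5.9e-04), just past the fold limit, and it was no longer past it without 8 nM replicate 1 or 3 or without 80 nM replicate 3. KIFC1, which gathers microtubule minus ends at the poles, was at 1.17, 1.44 and 1.36 without drug, 1.09, 1.23 and 0.93 at 8 nM, and 1.07, 1.04 and 1.15 at 80 nM. Its change was -0.24 at each concentration (adjusted p = 0.16 and 0.076), and its untreated and 8 nM arrays overlapped.

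Among the motors of the midzone and of cytokinesis, KIF23, the motor subunit of centralspindlin, was at 3.03, 2.91 and 3.04 without drug, 2.68, 2.86 and 2.81 at 8 nM, and 3.19, 3.18 and 3.22 at 80 nM. The groups did not overlap, with changes of -0.21 (adjusted p = 0.10 in limma) and 0.20 (adjusted p = 0.045). KIF20A, which brings the chromosomal passenger complex to the midzone, was 0.17 higher at 8 nM (adjusted p = 0.15) and 0.41 higher at 80 nM (adjusted p = 0.0016). KIF14, a partner of citron kinase, fell by 0.44 at 8 nM (adjusted p = 0.016) and by 0.26 at 80 nM (adjusted p = 0.038) on the log2 scale. KIF20B changed by -0.42 at 8 nM (adjusted p = 0.041) and by -0.26 at 80 nM (adjusted p = 0.070). Its second probe gave 0.12 and 0.71, so the direction of KIF20B differed between its probes. The 0.71 at 80 nM was past the fold limit (adjusted p = 8.8e-04 in the limma fit over probes). KIF4A, which limits the length of midzone microtubules, changed by -0.28 and 0.12, and its second probe gave -0.42 and -0.23.

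The motors that act on chromosomes and on microtubule ends included the depolymerases KIF2A and KIF2C, which fell at 80 nM by 0.34 (adjusted p = 0.011 in limma) and 0.36 (adjusted p = 0.0045) on the log2 scale. At 8 nM their changes were 0.05 and -0.21, neither with an adjusted p under 0.05. KIF18A, which damps the movement of chromosomes at the metaphase plate, was 0.24 higher at 80 nM (adjusted p = 0.042). KIF22, a motor bound to chromosome arms, changed by -0.29 at 8 nM (adjusted p = 0.064) and by -0.02 at 80 nM (adjusted p = 0.84). With the spike-in scale the changes of KIF15, KIF18A and KIF23 at 80 nM were -0.047, -0.035 and -0.077.

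**Figure D3:**
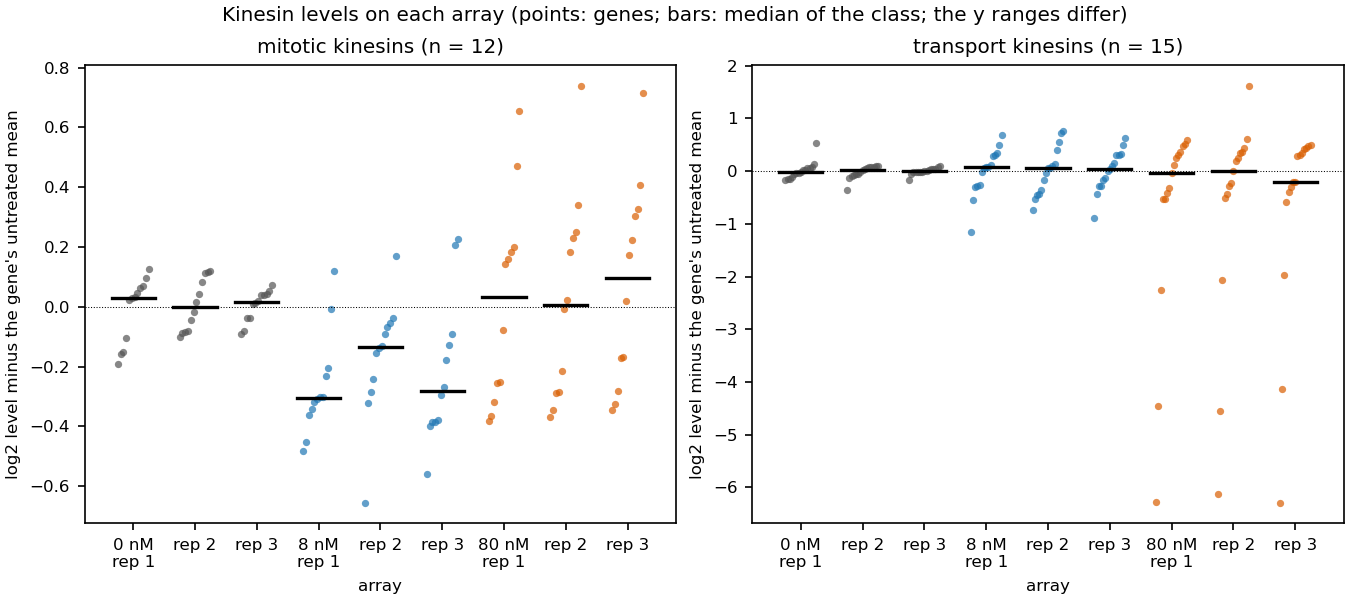
Levels of the 12 mitotic and 15 transport kinesins (points) on each of the 9 arrays, as log2 level minus the untreated mean of the same gene, with the median of the class as a black bar and different y ranges in the panels. The mitotic medians at 8 nM lie at -0.31, -0.13 and -0.28 and those at 80 nM at 0.03, 0.01 and 0.10, while the transport medians stay between -0.20 and 0.08 with KIF1A far below the other genes at 80 nM.

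Among the 15 transport kinesins, the count called was 1 up and 1 down at 8 nM and 1 up and 3 down at 80 nM. The same rule called 4.25% of all genes up and 2.84% down at 8 nM, and 18.8% up and 16.3% down at 80 nM. With an adjusted p under 0.05 at any fold, 4 had risen and 6 had fallen at 80 nM, where 33.3% and 25.7% of all genes had. The median change of the class was -0.08, beside 0.08 over all genes. Without 3 members that are not well above background on every array (KIF5A, KIF5C and KIF13B), the count at 80 nM was 1 called, KIF1A.

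Of the 7 other kinesins tested, KIF26A (NM_015656) changed most. It encodes an atypical kinesin that binds microtubules without moving along them and is known from the development of enteric neurons. It was at -0.57, -0.87 and -0.84 without drug, -1.10, -1.18 and -1.55 at 8 nM, and -2.53, -2.51 and -2.54 at 80 nM. The groups did not overlap. The change was -0.52 at 8 nM (SE 0.13, adjusted p = 0.033 in limma), short of the fold limit, and it passed that limit without 8 nM replicate 1. With the replicate block among the untreated and 8 nM arrays the adjusted p was 0.085. That p stayed under 0.05 with the block on all 9 arrays, and did not with only the untreated and 8 nM arrays and no block. At 80 nM the change was -1.77 (adjusted p = 1.1e-05), a 3.41-fold fall.

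KIF26B, its relative, was at -5.88, -5.74 and -5.66 without drug (well above background on 2 arrays), -5.78, -5.73 and -5.10 at 8 nM (on 2) and -4.51, -4.81 and -4.52 at 80 nM (on 3). All 80 nM arrays lay above the others, with a change of 1.15 (adjusted p = 8.1e-04 in limma), a call that was not made with normexp background. KIF25, a little known motor with a C-terminal head, was at -6.09, -5.56 and -5.60 without drug (well above background on 2 arrays), -4.60, -4.49 and -5.37 at 8 nM (on 3), and -6.18, -6.66 and -6.31 at 80 nM (on 0). No groups overlapped. At 8 nM it was higher by 0.93 (SE 0.25, adjusted p = 0.046), a call that was not made with normexp background. With the replicate block among the untreated and 8 nM arrays the adjusted p was 0.12, and KIF25 was still called by the unadjusted rule. At 80 nM it was at least 1.17-fold lower than in untreated cells (adjusted p = 0.060) and at least 2.22-fold lower than at 8 nM (adjusted p = 0.0010). The call at 80 nM against untreated was not made with quantile normalization, normexp or the authors' values, nor without untreated replicate 2 or 3 or without 80 nM replicate 2 or 3.

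The other kinesins not called were KIF7, which organizes the tip of the primary cilium in Hedgehog signalling and was 0.36 higher at 80 nM (adjusted p = 0.016 in limma), and KIF21B, a regulator of microtubule growth, 0.32 higher (adjusted p = 0.030). KIF21A, a regulator of microtubule growth at the cell cortex, changed by 0.05 at 80 nM (adjusted p = 0.74). KIF24, which removes tubulin at centrioles, changed by -0.31 at 8 nM and -0.30 at 80 nM (adjusted p = 0.18 and 0.10).

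The proteins that work with mitotic kinesins had a similar median at 8 nM. Of 20 partner genes tested, 0 were called up and 1 down at 8 nM in limma (0 and 15 with an unadjusted p under 0.05 at any fold, beside 14.5% and 16.3% of all genes), with a median change of -0.28, beside -0.06 over all genes. With the replicate block among the untreated and 8 nM arrays, 12 were lower with an unadjusted p under 0.05 and 1 with an adjusted p under 0.05. Of all genes, 14.8% and 0.806% were. The gene called was NUSAP1, a protein that bundles spindle microtubules (-0.73, adjusted p = 0.0011 in limma), where 2.84% of all genes were called down. CENPE, the kinetochore kinesin whose symbol lies outside the family's naming rule, changed by -0.26 (adjusted p = 0.068), PRC1, the bundling protein to which KIF4A binds, by -0.27 (adjusted p = 0.021), RACGAP1, the partner of KIF23, by -0.29 (adjusted p = 0.056), and TPX2, the partner of KIF15 and Aurora A, by -0.24 (adjusted p = 0.042). At 80 nM 2 partners were called up, the mitotic kinase CDK1 (1.13, adjusted p = 2.8e-06) and ECT2, the exchange factor that centralspindlin activates (0.66, adjusted p = 0.0029). The 2 called down were INCENP, the scaffold of the chromosomal passenger complex (-1.63, adjusted p = 7.9e-05), and KNSTRN, a spindle protein of kinetochores (-0.70, adjusted p = 1.3e-04). The median of the list at 80 nM was 0.03, and 18.8% of all genes were called up and 16.3% down at that concentration.

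Of 24 genes for cargo adaptors and light chains, 22 were tested. FEZ1, an adaptor of kinesin-1 in axons, was higher by 1.98 (adjusted p = 1.5e-05 in limma) at 8 nM, and at 80 nM it changed by -0.16 against untreated cells (adjusted p = 0.089), a difference of -2.14 between the concentrations. The light chain KLC4 was called down at 8 nM (-0.95, adjusted p = 0.16). At 80 nM 1 was called up, TRAK2, an adaptor of mitochondria (1.32, adjusted p = 8.9e-06), and 4 down, where 18.8% and 16.3% of all genes were. The 4 called down were MAPK8IP3, an adaptor of kinesin-1 in axons (-0.98, adjusted p = 2.1e-05), KLC4 (-0.97, adjusted p = 0.069, well above background on 2 of 3 arrays), KIFAP3, the accessory subunit of kinesin-2 (-0.64, adjusted p = 5.1e-04), and RHOT2, the mitochondrial receptor of TRAK proteins (-0.62, adjusted p = 0.0018). The light chain KLC1 changed by -0.02 at 80 nM (adjusted p = 0.82), and KIFBP, which binds the motor domain of several kinesins including KIF1A, by 0.36 (adjusted p = 0.011).

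Dynein and dynactin, which move cargo in the direction opposite to most transport kinesins, had 0 of 23 tested genes called at 8 nM in limma. Of these, 7 were higher and 2 lower with an unadjusted p under 0.05 at any fold, beside 14.5% and 16.3% of all genes. At 80 nM 2 were called up, the light chain DYNLT3 (0.94, adjusted p = 0.0026 in limma) and the dynactin subunit ACTR10 (0.85, adjusted p = 0.0010), and 2 down, the adaptor BICD2 (-0.77, adjusted p = 6.2e-05) and the dynein regulator NDE1 (-0.61, adjusted p = 0.0016). Of 13 tested genes for intraflagellar transport, the process that kinesin-2 drives in cilia, 0 were called at 8 nM (4 were higher and 1 lower with an unadjusted p under 0.05 in limma, beside the same shares of all genes) and 2 were called up at 80 nM, IFT46 (0.61, adjusted p = 1.0e-04) and IFT80 (0.59, adjusted p = 8.6e-04). Of all genes, 18.8% were called up and 16.3% down at 80 nM. The medians at 80 nM were 0.21 for dynein and dynactin and 0.19 for intraflagellar transport, beside 0.08 over all genes.

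**Figure D4:**
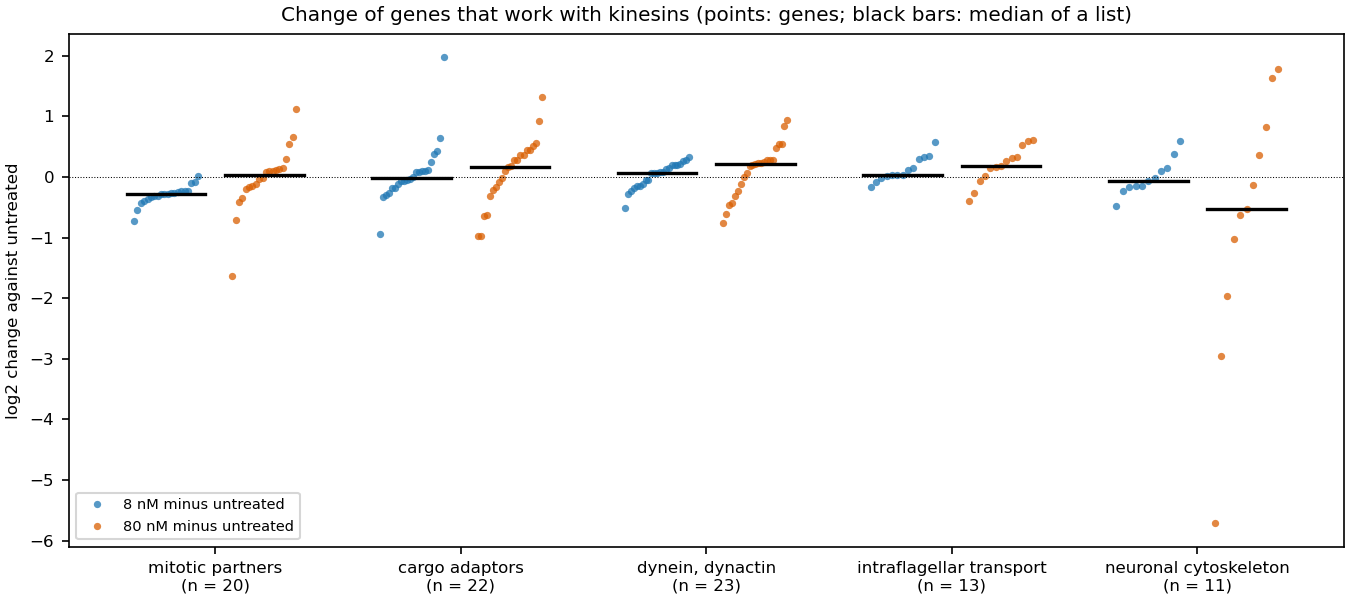
Log2 change against untreated cells, at 8 nM (left of each pair) and 80 nM (right), of the genes tested in 5 lists of proteins that work with kinesins or belong to the neuronal cytoskeleton, with each point a gene and the median of a list as a black bar. The mitotic partners lie mostly below 0 at 8 nM (median -0.28), and the neuronal cytoskeleton list spreads widest at 80 nM.

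Genes of the neuronal cytoskeleton were set beside KIF1A because that motor is known from axons. Of 16 listed, 11 were tested, and 1 was called at 8 nM, the intermediate filament gene INA (0.59, adjusted p = 0.0040 in limma), where 4.25% of all genes were called up and 2.84% down. At 80 nM 3 were called up and 5 down, where 18.8% and 16.3% of all genes were. The microtubule-associated proteins MAP2 and MAPT were well above background on every array without drug or at 8 nM and on no 80 nM array (adjusted p = 4.7e-07 and 5.7e-05). NEFL, a neurofilament subunit, fell by 1.96 (adjusted p = 5.7e-06) and the neuronal tubulin TUBB3 fell by 1.02 (adjusted p = 7.2e-05) on the log2 scale. STMN3, a stathmin of neurons, was the other gene called down (-0.63, adjusted p = 0.015). MAP1B, a microtubule-associated protein of axons, rose by 1.64 (adjusted p = 4.0e-05), INA by 0.83 (adjusted p = 8.9e-05), and SYT1, a synaptic vesicle protein, was well above background on all 3 arrays at 80 nM and on none of the others (adjusted p = 0.0017). Of 8 neuron markers, RBFOX3, STMN2, NEFM and DCX were well above background on no array, and the summed level of the 8, in units of the 75th percentile, ranged from 0.678 to 0.823 on the untreated arrays, from 0.687 to 0.942 with 8 nM and from 0.429 to 0.451 with 80 nM. Of the tested neuron markers besides NEFL, SNAP25 changed by 0.37, SYT1 by 1.78 and SYP by -0.14 at 80 nM. All of these markers but RBFOX3 are also among the 16 genes of the neuronal cytoskeleton. The summed level of those 16 moved the other way, from between 4.47 and 4.87 without drug. It lay between 4.96 and 6.06 with 8 nM and between 6.57 and 6.75 with 80 nM. Such sums are weighted towards bright probes: from untreated to 80 nM the mean level of INA went from 0.97 to 1.80 and that of MAP1B from -0.45 to 1.19. The median change of the 11 tested genes at 80 nM was -0.53. Of 4 fibroblast markers, PDGFRA, a growth factor receptor, changed by -6.50 at 80 nM (adjusted p = 1.6e-08, well above background on 2 of 3 arrays), DCN, a matrix proteoglycan, by -1.39 (adjusted p = 0.0011) and PDGFRB by 0.0043, and LUM was well above background on no 80 nM array. The summed level of those 4 ranged from 2.576 to 3.099 on the untreated arrays, from 2.944 to 3.508 with 8 nM and from 0.202 to 0.236 with 80 nM. EPCAM, an epithelial marker, changed by 0.90 at 8 nM (adjusted p = 0.029) and by -0.93 at 80 nM (adjusted p = 0.0065). The other epithelial markers tested did not share that fall, with changes at 80 nM of 0.55 (MUC1), 0.30 (KRT8), 0.17 (KRT19) and -0.008 (KRT18). The sums of 4 leukocyte and of 4 endothelial markers stayed between 0.11 and 0.193 on all 9 arrays. The part of these genes in the result for KIF1A was not tested. Because RNA was taken from whole cultures, fewer cells with a transcript and less of it per cell cannot be told apart.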

How the data were processed

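The arrays measured RNA of A2780 cells grown for 24 h without drug, with 8 nM or with 80 nM DIG-MSK (3 arrays each). Groups and replicate numbers came from the titles of the samples. The authors labeled each RNA with Cy3, hybridized it to an Agilent array and extracted spots with Feature Extraction 10.7.3.1, and in the deposited processed intensity background is subtracted, with no scaling from array to array. The paper and the labels name different labeling kits. The deposited table of log2 values by the authors tracked the log2 median signal (correlations between 0.99848 and 0.99981), had column medians between 6.4511 and 6.5269, so near-equal quantiles, and served as an alternative only. The paper names background subtraction and lowess normalization within Feature Extraction, and single-color arrays have no other channel for lowess to balance.

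Here log2 intensity was taken relative to the 75th percentile of each array. Of 62976 spots, 4259 control spots and all outlier spots were left out, and spots of a probe were averaged. Of 42405 gene probes, 26457 passed the filter, which asked for a signal well above background on each of the 3 arrays of some group; the brightest probe stood for a gene. Symbols came from a RefSeq table (GRCh38.p14), which named 25715 of the 27245 probes with a RefSeq accession, and promoter sequences are those of RefSeq on the same build. Tests used limma 3.58.1 in R 4.3.3 on all 9 arrays, which share an estimate of spread per gene, with Benjamini-Hochberg adjustment over 21832 genes, and the script was tested on simulated data. P-values measure the spread between these arrays, whose number limits the precision. A bound ("at least") sets the mean of the brighter group against the dimmest signal well above background on each array of the dimmer one. It applies to the main processing only, and a p-value beside it is that of the fit to the measured values.

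Whether replicate numbers pair the arrays was not settled. Deviations from the group means of same-numbered untreated and 8 nM arrays correlated at 0.11, 0.10 and 0.16. The pairs with 80 nM arrays lay between -0.12 and 0.02, and arrays with different numbers were not compared in this way. The members, classes and lists were chosen with earlier results of these data known. Named genes are all kinesins and, in the partner lists, those called (up to 4 with the largest change per list and concentration) with CENPE, PRC1, RACGAP1, TPX2, KLC1, KIFAP3 and KIFBP; further called genes were named after their values were seen. The result of 1 gene of the cargo adaptor list is not reported here. Values are given on every array for kinesins called at 8 nM, for the up to 5 per class most changed among those called at 80 nM, for KIF5B, KIF23 and KIFC1, and, chosen after their values were seen, for KIF1B, KIF3C and KIF15. Alternatives were normexp background (offset 50) on the median signal, quantile, median and spike-in scaling (10 probes), the authors' values, other filters on dim probes, the mean of a gene's probes, fewer arrays in the fit, the replicate block, adjusted p, narrower classes and each array left out.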

Additional observations from a re-analysis of the deposited data

Results flagged for a closer look

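In 5 kinesins every array at 8 nM lay on one side of the untreated arrays and every array at 80 nM on the other side. The difference between the concentrations (80 nM minus 8 nM, log2) was tested in limma on 3 arrays per group. These 5 were picked by that pattern and by an adjusted p under 0.05 for the difference. The share of all genes that meet the same conditions was not counted. KIF15 (0.59, adjusted p = 5.9e-04), KIF23 (0.41, adjusted p = 0.0018) and KIF4A (0.40, adjusted p = 0.0033), motors of the spindle and midzone, were below untreated cells at 8 nM and above them at 80 nM. KIF3C (-1.01, adjusted p = 1.2e-04) and KIF25 (-1.56, adjusted p = 0.0010) were above at 8 nM and below at 80 nM, and KIF25 was well above background on no array at 80 nM. Against untreated cells the adjusted p in limma was 0.057 at 8 nM and 0.24 at 80 nM for KIF4A. It was 0.10 at 8 nM for KIF23 and 0.060 at 80 nM for KIF25. The second probe of KIF4A was lower at both concentrations (-0.42 and -0.23). That of KIF3C was well above background only on 2 arrays at 80 nM. With the spike-in scale KIF15, KIF23 and KIF4A were at -0.047, -0.077 and -0.16 against untreated cells at 80 nM, so that their change no longer turned in direction. The 80 nM arrays were on a slide of their own, whose part in these differences cannot be told apart.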

How the results depend on the processing

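Some alternatives (a block, only the groups compared, an array left out of a group not compared) leave the log2 change as it was and could move only the p-value. Over the values of single kinesins under all alternatives, 1663 kept their direction and side of the threshold, 204 lost and 55 gained an adjusted p under 0.05, and 35 changed sign, of which 28 had an adjusted p above 0.05 with and without the change of setting. The other 7 were with spike-in scaling: at 80 nM against untreated KIF15 (-0.047), KIF18A (-0.035) and KIF23 (-0.077), and at 80 nM against 8 nM KIF20A (-0.12), KIF22 (-0.091), KIF3B (-0.072) and KIF7 (-0.084). Of the 28, 10 were also with spike-in scaling: against untreated KIF17 (-0.059), KIF21A (-0.23), KIF4A (-0.16) and KIF5B (-0.031), and against 8 nM KIF14 (-0.17), KIF20B (-0.20), KIF21A (-0.072), KIF24 (-0.35), KIFC1 (-0.36) and KIFC2 (-0.26). With the mean of the probes of a gene KIF20B (0.22), KIF4A (-0.054) and KIF5B (-0.11) changed sign at 80 nM. KIF25 at 80 nM was 0.064 with the authors' values and 0.095 with normexp, and KIFC1 between the concentrations (0.0016) was -0.12 with the authors' values, -0.083 with normexp and -0.037 with quantile normalization. With each array left out in turn, KIF13A at 8 nM lay between -0.010 and 0.11, KIF2A between -0.023 and 0.10, KIF3A between -0.26 and 0.039, KIF22 at 80 nM between -0.074 and 0.0093, and between the concentrations KIF24 between -0.14 and 0.17 and KIFC1 between -0.077 and 0.076. KIF1A at 80 nM lay between -6.51 and -5.82 over the alternatives and kept its call in each. Of the counts that moved by over 1.5 times, kinesins called up at 8 nM (2) were 1 with adjusted p, the authors' values, median scaling or the replicate block with only the untreated and 8 nM arrays, and 0 with normexp or the filter on all 9 arrays; the block on all 9 arrays left 2. Kinesins called down at 80 nM (5) were 3 with the authors' values or normexp, 2 with the filter on all 9 arrays and 11 with spike-in scaling, and those called up (3) were 1 with normexp, spike-in scaling or the filter. From 8 to 80 nM the kinesins up (4) were 1 with the authors' values, normexp or spike-in scaling, and those down (6) were 3 with the filter. Mitotic kinesins called at 80 nM against 8 nM (2) were 1 with the authors' values, normexp or quantile normalization, and against untreated (1) were 2 with spike-in scaling. Transport kinesins called at 8 nM (2) were 1 with adjusted p, the authors' values, median scaling, normexp, that block or the filter; at 80 nM (4) they were 2 with the authors' values or normexp and 1 with the filter, and against 8 nM (5) they were 3 with normexp or the filter.

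The mitotic median with spike-in scaling was -0.17 at 8 nM (-0.25), -0.23 at 80 nM (0.05) and -0.11 between the concentrations (0.25), and at 80 nM it was 0.12 with narrower classes or no filter. The transport median at 80 nM (-0.08) was -0.31 with narrower classes, -0.36 with spike-in scaling and 0.071 with the filter, and between the concentrations (-0.14) it was -0.043 with normexp and -0.50 with spike-in scaling. With each array left out in turn, kinesins called up at 8 nM lay between 1 and 2, those called down at 8 nM between 1 and 2, transport kinesins called at 8 nM between 1 and 2, and mitotic kinesins called at 80 nM against 8 nM between 1 and 2. Where no cause follows from the alternative itself (fewer genes tested, fewer arrays), the cause was not tested. KIF5A, KIF5C, KIF25 and KIF26B are limited by signal near background.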

Other observations

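KIF6, an axonemal motor that was not tested, stood at -1.12 on the array of untreated replicate 1 and between -8.32 and -7.76 on the other 8 arrays, where it was not well above background; its other 2 probes were well above background on no array.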
